A study of Homo sapiens with 24 samples.

Results

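The genes described here are 36 genes of the autophagy machinery, measured in 2 human lung adenocarcinoma cell lines treated with Pirfenidone or PBS. They were listed by name, a probe counted for a gene if the array's own gene name was the listed symbol, and the brightest probe over all arrays stood for each gene. All 36 had a probe, among 25992 gene names on the array, and each brightest probe was well above background on all 24 arrays, so all 36 were tested among 23827 probes.

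Autophagy is the route by which a cell wraps part of its own cytoplasm in a double membrane, the autophagosome, and delivers it to the lysosome for digestion. A kinase complex built around ULK1 or ULK2 starts the process when nutrients run short, a lipid kinase complex marks the membrane, and the ATG8 proteins (the LC3 and GABARAP families) are attached to it by a ubiquitin-like conjugation system. Cargo receptors such as SQSTM1 (p62) tie selected material to the growing membrane, and the transcription factor TFEB raises many of the genes when the lysosome is under load. In tumor cells the pathway is known as a means of living through stress, and the mRNA levels measured here do not report on how much autophagy takes place.

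A549 and H1975 cells, both adherent lines grown in culture, received Pirfenidone, an anti-fibrotic drug in clinical use for lung fibrosis, at 0.75 mg/ml per the labels, or an equal volume of PBS as control, and were harvested after 6 h or 24 h. A legend in the study's text gives another dose for transcriptome data of A549. Whether it describes these arrays is not stated there, and the labels were followed. This gave 8 groups of 3 samples, and each sample had its own Agilent one-color array, on which the brightness of a spot measures the RNA bound by its probe. Levels are the log2 of the spot signal relative to the 75th percentile of the array, called normalized log2 levels below, and differences are Pirfenidone minus PBS on that scale. A member was called where its limma p, adjusted by Benjamini-Hochberg over all 23827 probes, was at most 0.05. The labels number the replicates without stating that they were separate cultures, so p-values measure the spread between these samples only, and a lower level can mean less RNA per cell or fewer cells that express the gene, which cannot be told apart in bulk RNA.

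Each array had 62.7% to 69.5% of its probes well above background and none saturated. All arrays of both lines detected the keratins KRT7, KRT8, KRT18 and KRT19, AKR1B10 stood at 7.07 in A549 against -2.09 in H1975, and DCN, a fibroblast marker, was well above background on no array, whereas COL1A2, another fibroblast gene, was so on all 12 H1975 arrays at 1.52 and on 0 A549 arrays, and LUM and PECAM1, markers of fibroblasts and endothelium, were so on 12 and 0 A549 arrays and on 0 and 12 H1975 arrays. The immune markers PTPRC and CD68 and the endothelial marker CDH5 were well above background on all 12 A549 arrays. On H1975 arrays they were so on 11, 12 and 12, and the immune marker CD3E was so on 0 A549 arrays and 1 H1975 array. CDKN2A, listed as a gene not expected above background in A549, was so on all 12 A549 arrays at -1.80 and all 12 H1975 arrays at 2.70. The part of these genes in differences between the lines was not tested. The files carry 4 different dates, of which each line has 3, and every date of a line holds 1 Pirfenidone and 1 PBS array at each time, so differences can also be read within a date. The sources used here do not say what step the date marks. No slide held both lines, so slide and line cannot be told apart. The 2 A549 arrays of replicate 3 at 24 h stood apart from their groups. Between them 33 of 36 members were lower with Pirfenidone (median difference -0.19), whereas 22 and 25 of 36 were higher in the other A549 pairs of that time. Of 22 genes listed for the ATF4 stress response, 20 were lower, whereas 15 and 16 of 22 were higher in the other pairs. Whether these arrays carry each other's labels was not tested, and the count, the ranges and the genes described most closely at 24 h in A549 are given with and without them. The pair was set apart because these genes ran opposite in it, so leaving it out moves their values upward by that choice.

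In H1975 cells, Pirfenidone raised kinase genes at the start of the pathway, 1 gene of the ATG8 family and 1 cargo receptor, whereas no member was called lower in the main fit. With the date of the files as a block, ATG12 and ATG4A were called lower at 24 h, where 21.8% of all probes were called. ULK1, the kinase that starts autophagosome formation, was 2.27-fold higher at 6 h and 2.16-fold higher at 24 h, and GABARAPL1, an ATG8 protein, was 1.75-fold and 1.51-fold higher. ULK2, the sister kinase of ULK1, and SQSTM1, the receptor for ubiquitin-tagged cargo, were higher at 24 h, by 1.68-fold and 1.49-fold. Only the calls of ULK1 held in every fit without 1 array, and a second ULK2 probe was not called. At 6 h 2 of 36 members were called and both were higher, where 1.41% of all probes were called, 1.04% as higher and 0.365% as lower. At 24 h 4 of 36 were called and all 4 were higher, where 6.26% of all probes were called, 2.91% as higher and 3.35% as lower. The median difference of the 36 members was 0.11 at 6 h and 0.17 at 24 h, beside 0.05 and 0.02 over all probes tested.

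In A549 cells no member was called at 6 h, where 0.34% of all probes were, or at 24 h, where 0.0126% were. At an unadjusted p under 0.05 there were 3 members at 6 h, beside 6.01% of all probes, and 0 at 24 h, beside 0.953%, in limma, and the methods' t-test after Benjamini-Hochberg adjustment called 0 at both times. The median of the 36 members was 0.05 at 6 h and -0.03 at 24 h, beside -0.01 and -0.02 over all probes, and the 36 differences at 24 h all lay between -0.24 and 0.08. Without the replicate 3 arrays the median at 24 h was 0.07, 24 of 36 differences were above 0, the 36 lay between -0.15 and 0.75, and still 0 were called, where 0.0588% of all probes were. The plot of the 36 differences by role shows the calls of H1975 beside the intervals of all other members.

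**Figure D1:**
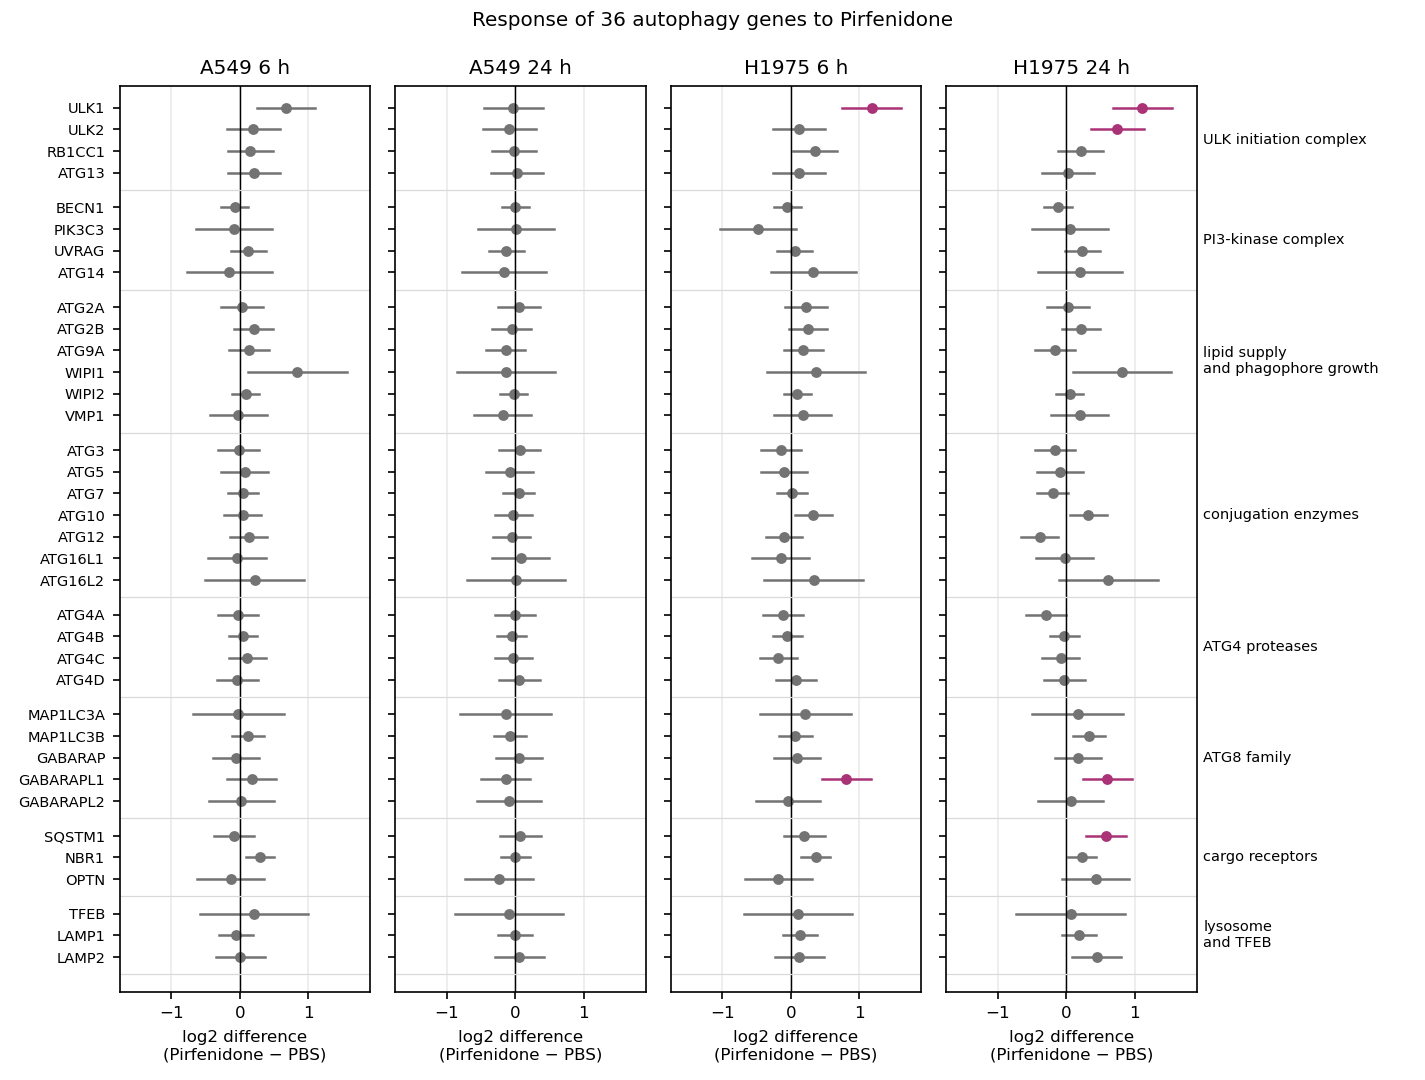
Log2 difference of Pirfenidone minus PBS for each of the 36 autophagy genes (points, grouped by role) with its 95% confidence interval from limma (lines), in A549 and H1975 at 6 h and 24 h, n = 3 arrays per group. Purple marks an adjusted p of 0.05 or less, reached by ULK1 and GABARAPL1 in H1975 at both times and by ULK2 and SQSTM1 in H1975 at 24 h.

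The ULK initiation complex held the largest response. ULK1 (NM_003565, probe at chr12:132407342-132407401 of hg19) stood at -0.41, 0.43 and 0.32 on the 3 PBS arrays of H1975 at 6 h and at 1.5, 1.39 and 0.98 on the 3 Pirfenidone arrays. At 24 h the PBS arrays gave 0.29, 0.02 and 0.09 and the Pirfenidone arrays 1.21, 1.01 and 1.52. At both times every Pirfenidone array lay above every PBS array. The difference was 1.18 (SE 0.20, adjusted p = 0.00507, 95% interval 0.75 to 1.61) at 6 h and 1.11 (SE 0.20, adjusted p = 0.00538, 95% interval 0.68 to 1.54) at 24 h, and ULK1 was the one member that also passed a 2-fold limit, which 0.491% and 1.89% of all probes did. Within the 3 dates ULK1 differed by 1.39, 1.08 and 1.08 at 6 h and by 1.43, 0.92 and 0.98 at 24 h.

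In A549, ULK1 stood at 1.75, 1.76 and 1.85 with PBS and at 2.33, 2.40 and 2.65 with Pirfenidone at 6 h, and the groups did not overlap. That difference of 0.67 (SE 0.20, 95% interval 0.25 to 1.1) had the lowest adjusted p of the members in A549 and was not called (adjusted p = 0.299). At 24 h the PBS arrays gave 1.69, 1.43 and 2.03 and the Pirfenidone arrays 1.81, 1.77 and 1.49, which overlap, with a difference of -0.03. Without the replicate 3 arrays it was 0.23 (SE 0.24, adjusted p = 0.897). ULK1 called in H1975 and not in A549 is no difference between the lines by itself: the response of H1975 minus that of A549 was 0.51 at 6 h (95% interval -0.10 to 1.11, not called) and 1.14 at 24 h (95% interval 0.53 to 1.74, adjusted p = 0.105). The 24 h value was 0.88 (adjusted p = 0.507) without the A549 replicate 3 arrays.

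ULK2 (NM_014683, probe at chr17:19677582-19677641 of hg19) moved in H1975 at 24 h and not detectably at 6 h. Its levels at 24 h were -1.55, -1.71 and -1.63 with PBS and -1.0, -0.92 and -0.74 with Pirfenidone, so that the groups did not overlap, with a difference of 0.75 (SE 0.18, adjusted p = 0.0232). At 6 h they were -1.53, -1.31 and -1.33 with PBS and -1.19, -1.16 and -1.46 with Pirfenidone, which overlap (difference 0.12, adjusted p = 0.926). The change of its response between the times, 0.63 (95% interval 0.08 to 1.17), was not called (adjusted p = 0.757). A second, dimmer ULK2 probe differed by 0.41 at 24 h and was not called (adjusted p = 0.207), and with the mean of both probes ULK2 was not called (0.58, adjusted p = 0.0575). RB1CC1 (FIP200) and ATG13, the scaffold and adaptor subunits, differed by 0.35 and 0.12 at 6 h and by 0.21 and 0.03 at 24 h in H1975, and none of these was called.

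In the ATG8 family 1 of 5 members was called in H1975. GABARAPL1 (NM_031412, probe at chr12:10375579-10375637 of hg19), which acts late in autophagosome closure, stood at -1.08, -0.60 and -0.56 with PBS and at 0.10, 0.06 and 0.02 with Pirfenidone in H1975 at 6 h. At 24 h the PBS arrays gave -0.40, -0.35 and -0.59 and the Pirfenidone arrays 0.04, 0.11 and 0.31. The groups were apart at both times, with differences of 0.81 (SE 0.17, adjusted p = 0.0224) and 0.60 (SE 0.17, adjusted p = 0.0442). A second GABARAPL1 probe gave 0.94 (adjusted p = 0.0101) and 0.60 (adjusted p = 0.0484). At 6 h the PBS array at -1.08 was the lowest, and without it the difference was 0.64 and no longer called (adjusted p = 0.128). Leaving out any 1 Pirfenidone array at 6 h also ended the call (adjusted p from 0.0625 to 0.0787).

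The other ATG8 genes are its close relatives GABARAP and GABARAPL2 and the LC3 genes MAP1LC3A and MAP1LC3B, of which MAP1LC3B encodes the protein most used as an autophagosome marker. Their differences in H1975 lay between -0.04 and 0.21 at 6 h and between 0.06 and 0.33 at 24 h, and none was called. MAP1LC3B had the largest of these at 24 h, 0.33 (adjusted p = 0.0826), from 2.31, 2.35 and 2.32 with PBS to 2.47, 2.59 and 2.92 with Pirfenidone. These groups did not overlap, and MAP1LC3B was called once the date was a block (adjusted p = 0.0150), where 21.8% of all probes were. In A549 the 5 ATG8 genes lay between -0.05 and 0.17 at 6 h and between -0.14 and 0.06 at 24 h (-0.12 to 0.14 without the replicate 3 arrays), none of them called.

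**Figure D2:**
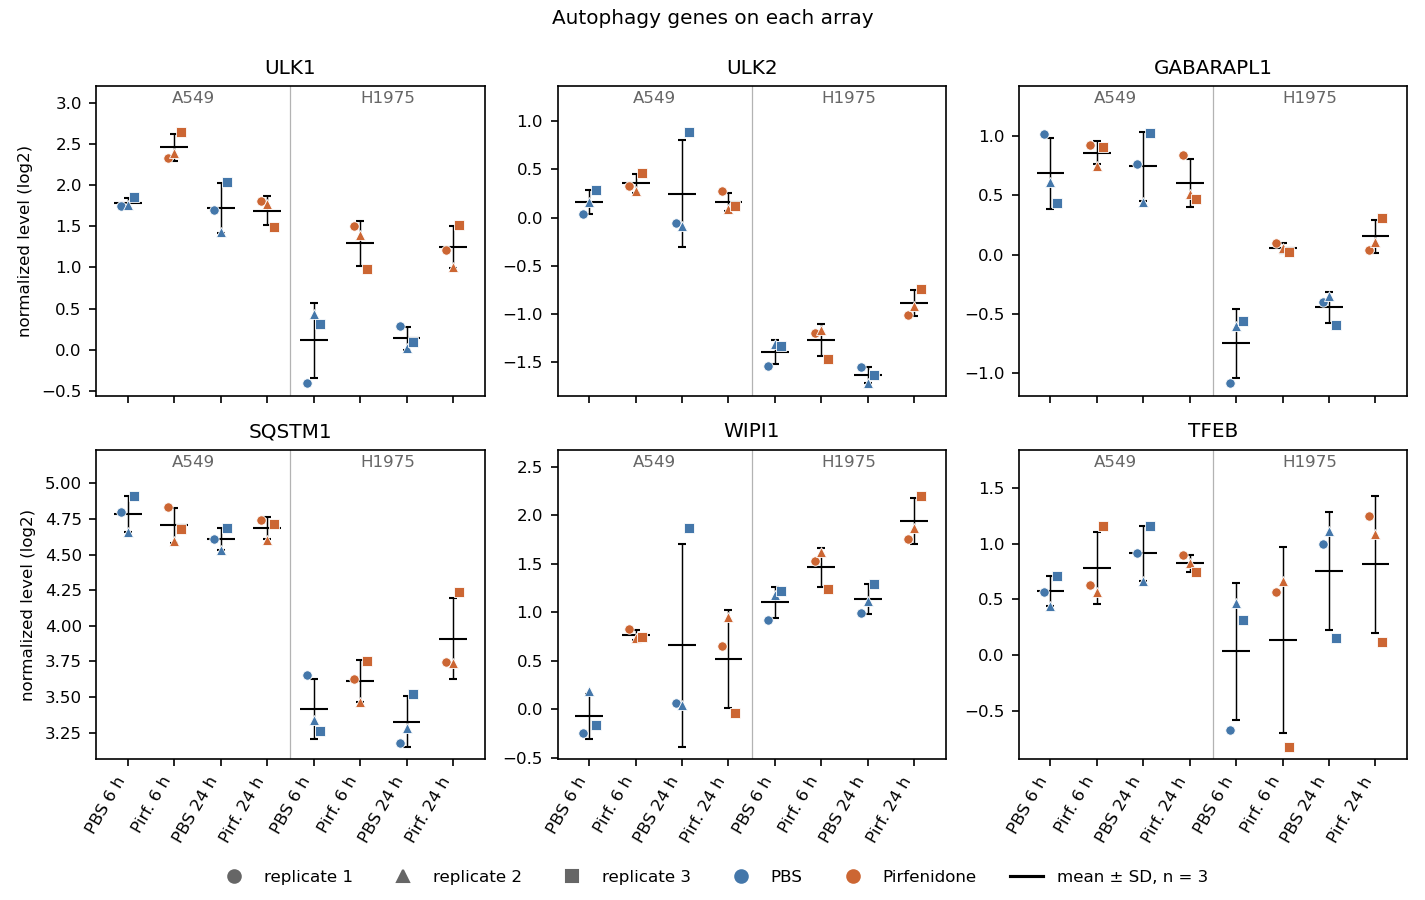
Normalized log2 level (y axis) of 6 autophagy genes on each of the 24 arrays, by line, time and treatment. Symbols mark the replicate number, colors the treatment, and the black bars the mean ± SD (n = 3). ULK1 and GABARAPL1 lie higher on all Pirfenidone arrays of H1975 at both times, WIPI1 of A549 at 24 h ranges from 0.04 to 1.87 with PBS, and TFEB spreads widely in H1975 within both treatments.

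Among the cargo receptors, SQSTM1 (NM_003900, probe at chr5:179263709-179263768 of hg19) rose in H1975 at 24 h. The PBS arrays gave 3.18, 3.28 and 3.52 and the Pirfenidone arrays 3.75, 3.74 and 4.24, without overlap, a difference of 0.58 (SE 0.14, adjusted p = 0.0224). At 6 h the PBS arrays gave 3.65, 3.34 and 3.26 and the Pirfenidone arrays 3.63, 3.46 and 3.75, which overlap (difference 0.20). In A549 SQSTM1 differed by -0.08 and 0.07, the latter 0.10 without the replicate 3 arrays. NBR1, a receptor related to p62, was 0.36 higher in H1975 at 6 h without overlap of the groups (adjusted p = 0.0874) and 0.29 higher in A549 at 6 h (adjusted p = 0.439). OPTN (optineurin), a receptor for mitochondria and bacteria, ranged from -0.24 to 0.43 over the 4 comparisons, none of them called.

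The membrane and lipid genes had 1 member with large differences that did not pass the test. WIPI1, which binds the lipid made by the PI3-kinase complex and whose mRNA is often read as a sign of autophagy, stood at -0.24, 0.19 and -0.17 with PBS and 0.82, 0.74 and 0.74 with Pirfenidone in A549 at 6 h, a difference of 0.84 (SE 0.34, adjusted p = 0.648). In H1975 it was 0.36 higher at 6 h (1.53, 1.63 and 1.24 against 0.92, 1.18 and 1.22; adjusted p = 0.836) and 0.81 higher at 24 h (1.75, 1.87 and 2.21 against 1.0, 1.11 and 1.30; adjusted p = 0.170). In these 3 comparisons every Pirfenidone array lay above every PBS array, and limma called none. The arrays spread most in A549 at 24 h, where PBS gave 0.06, 0.04 and 1.87 and Pirfenidone 0.66, 0.95 and -0.04, an SD of 1.05 in the PBS group.

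Within dates WIPI1 at 24 h in A549 differed by 0.59 and 0.90 in the pairs of replicates 1 and 2 and by -1.91 in the pair of replicate 3. Without the replicate 3 arrays the A549 difference at 24 h was 0.75 (SE 0.18, adjusted p = 0.176), in place of -0.14 with them. With the date as a block as well, a fit added after the values were seen, WIPI1 (adjusted p = 0.0394) and LAMP2 (adjusted p = 0.0444) were called, where 4.44% of all probes were. Only replicates 1 and 2 remain in these A549 groups. The pair left out was picked for running opposite in the members, so these 2 calls are no independent support. The other membrane genes, ATG2A and ATG2B (lipid transfer), ATG9A and VMP1 (membrane proteins) and WIPI2, differed by -0.19 to 0.25 over the 4 comparisons and none was called.

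**Figure D3:**
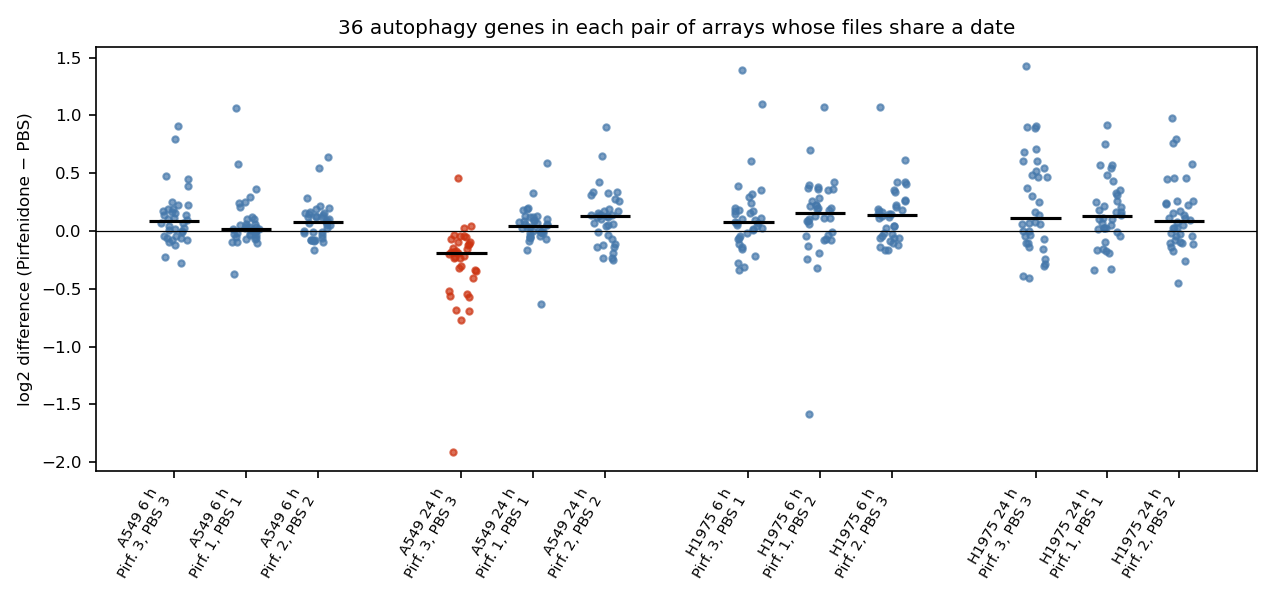
Log2 difference of Pirfenidone minus PBS (y axis) of the 36 autophagy genes (points) in each of the 12 pairs of arrays whose files share a date, with the median as a bar. The pair of replicate 3 of A549 at 24 h (red) has 33 of 36 genes below 0 and a median of -0.19, whereas the medians of the other 11 pairs lie between 0.02 and 0.15.

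The conjugation machinery, which joins ATG12 to ATG5 and the ATG8 proteins to lipid, had no call by its brightest probes in any drug comparison of the main fit. With the date as a block ATG12 and ATG10 were called in H1975. In H1975 at 24 h ATG12 had the lowest difference of the members, -0.39 (adjusted p = 0.0723), from 2.66, 2.79 and 2.88 with PBS to 2.32, 2.34 and 2.49 with Pirfenidone, without overlap. A second ATG12 probe differed by -0.59 and passed (adjusted p = 0.0128). The brightest probe passed once the date was a block (adjusted p = 0.00295), where 21.8% of all probes did. ATG3 and ATG7, the enzymes that transfer and activate ATG8, were -0.17 and -0.20, and ATG10, which transfers ATG12, was 0.32 (adjusted p = 0.143), called by a second probe at 0.51 (adjusted p = 0.0456). ATG7 is a gene whose probes disagreed: at 6 h in H1975 the brightest differed by 0.02 and another by -0.73 (adjusted p = 0.0163). Several probes were tested for 16 members. Their signs differed for 2 members in H1975 at 6 h, 4 at 24 h and 6 in each A549 comparison. ATG5, ATG16L1 and ATG16L2, the complex that sets where lipidation happens, lay between -0.15 and 0.61 over both H1975 comparisons.

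The ATG4 proteases, which trim and release ATG8, all lay between -0.29 and 0.11 in the 4 comparisons, with ATG4A lowest in H1975 at 24 h (adjusted p = 0.230). The PI3-kinase complex (PIK3C3, the lipid kinase, with BECN1, ATG14 and UVRAG) had no call. PIK3C3 had the lowest difference of the members in H1975 at 6 h, -0.47 (SE 0.26, adjusted p = 0.571), and this came from 1 of 3 Pirfenidone arrays, at -0.68, while the others stood at 0.99 and 0.62 against 0.57, 0.91 and 0.88 with PBS. TFEB differed by -0.09 to 0.21. In H1975 it stood on the arrays of 1 date at -0.67 and 0.15 with PBS and at -0.82 and 0.11 with Pirfenidone, below all other H1975 arrays of the same time, and Pirfenidone and PBS arrays of TFEB overlapped at both times. LAMP1 and LAMP2, the main proteins of the lysosomal membrane, differed by at most 0.18 and 0.44, and LAMP2 at 24 h in H1975, with no overlap of the groups, was not called (adjusted p = 0.127).

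Groups that did not overlap were counted for all members. In H1975 at 24 h there were 16 of 36, where 31.9% of all probes did so, with 11 higher (16.3% of all probes) and 5 lower (15.6%). In H1975 at 6 h there were 5, where 17.8% of all probes did so, and all 5 were higher (10.6% higher and 7.16% lower over all probes). In A549 at 6 h there were 9, where 15.3% of all probes did so, with 7 higher (7.03%) and 2 lower (8.24%), and at 24 h there were 0, where 1.83% did. Differences between responses were tested directly and called no member: between lines at 6 h (0.0378% of all probes called) and 24 h (0.239%), and between times in A549 (0.0294%) and in H1975 (0.00839%), with 1, 5, 1 and 1 members at an unadjusted p under 0.05, beside 2.63%, 12.2%, 3.04% and 5.86% of all probes. With the date as a block ULK1 (1.14, adjusted p = 0.0364) and SQSTM1 (0.51, adjusted p = 0.0221) passed in the line difference at 24 h, where 4.81% of all probes did, and with the A549 replicate 3 arrays also left out neither did (adjusted p = 0.114 and 0.0531), where 3.06% of all probes did.

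Promoter sequence is shown for the kinases and the ATG8 gene that moved and, beside them, for LAMP1, which was called in no drug comparison and was chosen after its matches were seen. The 250 bases before the RefSeq start site (GRCh38.p14) were searched on both strands for CACGTG, the core of the TFEB element, TGATGNAA, the composite element of ATF4, and TGACNNNGC, the element of NRF2, in 31 members with a sequence. RB1CC1, UVRAG, ATG4D, MAP1LC3A and LAMP2 were not searched. The lines run 5′ to 3′ on the strand of the gene, with matches in capitals, and TGACGTCA, the cyclic AMP response element, was added after the sequences were read.
ULK1 (chr12:131894372-131894621, plus strand): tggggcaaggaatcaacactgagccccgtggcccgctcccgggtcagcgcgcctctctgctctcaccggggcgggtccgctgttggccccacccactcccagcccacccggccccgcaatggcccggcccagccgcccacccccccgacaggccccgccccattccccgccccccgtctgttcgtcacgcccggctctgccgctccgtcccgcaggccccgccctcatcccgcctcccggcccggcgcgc
ULK2 (chr17:19867937-19868186, minus strand): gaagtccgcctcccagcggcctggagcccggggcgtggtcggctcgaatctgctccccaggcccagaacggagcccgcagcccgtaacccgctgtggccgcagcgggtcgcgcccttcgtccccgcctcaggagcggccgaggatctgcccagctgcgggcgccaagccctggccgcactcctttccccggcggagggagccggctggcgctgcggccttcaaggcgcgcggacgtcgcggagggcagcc
GABARAPL1 (chr12:10212627-10212876, plus strand): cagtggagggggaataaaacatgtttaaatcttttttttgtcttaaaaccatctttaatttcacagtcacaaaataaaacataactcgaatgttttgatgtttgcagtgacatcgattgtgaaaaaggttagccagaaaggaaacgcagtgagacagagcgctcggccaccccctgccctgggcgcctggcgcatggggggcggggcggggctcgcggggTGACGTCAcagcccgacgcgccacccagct
LAMP1 (chr13:113296989-113297238, plus strand): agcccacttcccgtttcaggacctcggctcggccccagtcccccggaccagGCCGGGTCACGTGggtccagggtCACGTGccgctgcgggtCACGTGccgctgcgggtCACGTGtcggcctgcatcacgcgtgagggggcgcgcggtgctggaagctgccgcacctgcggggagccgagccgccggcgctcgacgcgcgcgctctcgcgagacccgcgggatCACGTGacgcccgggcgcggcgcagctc
None of the first 3 motifs was found in these letters for ULK1, ULK2 or GABARAPL1, nor in the 3 windows of SQSTM1, and GABARAPL1 holds the cyclic AMP response element, as 1.65% of all 35116 promoter windows do. LAMP1 holds CACGTG at 5 places, and the match to the NRF2 element runs into the first of them. The 31 members have 39 windows, of which 3 (1 each of ATG14, ATG3 and LAMP1) hold CACGTG, as 6.35% of all windows do, 2 (LAMP1 and MAP1LC3B) the NRF2 element, as 10.9% do, and 0 the ATF4 element, as 3.14% do. A match in these letters is a description and says nothing of binding.

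The genes around the pathway, from 7 lists of 149 tested genes, were tested in the same fit. The ATF4 stress genes, which answer to amino acid shortage and unfolded protein, had the most calls. Of 22, Pirfenidone raised 6 in A549 and 11 in H1975 at the early time and 13 in H1975 at the late time. None was called lower, and 0 were called in A549 at 24 h. Over all probes 0.34%, 1.41%, 6.26% and 0.0126% were called in these comparisons. The medians of the list were 0.75, 0.83, 1.03 and -0.03 in that order. This list was chosen with earlier results of these data known. In A549 at 24 h the pairs of replicates 1, 2 and 3 had list medians of 0.12, 0.36 and -0.68, and without the replicate 3 arrays the fitted median was 0.23, with 18 of 22 above 0 and 0 called. CHAC1, which degrades glutathione, rose by 3.20 and 2.77 in H1975 and by 2.29 in A549 at 6 h. SLC7A11, the cystine importer, rose by 1.56 and 2.18 in H1975, DDIT3 (CHOP) by 2.08 and 1.71, ASNS (asparagine synthetase) by 1.17 and 1.89 and NUPR1, a stress-induced regulator, by 1.70 and 1.85. In A549 at 6 h DDIT3 (2.19), EIF2AK3 (1.34), the kinase PERK, and TRIB3 (1.24), a pseudokinase, rose beside CHAC1.

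Of 35 nutrient sensing genes, which hold the mTORC1 and AMPK pathways upstream of ULK1, 2 rose in H1975 at 6 h. At that time 1.41% of all probes were called. The 2 genes were DDIT4 (REDD1) at 2.30 and SESN2 at 1.86, both inhibitors of mTORC1 and both also on the ATF4 list. At 24 h SESN2 (1.79), DDIT4 (1.67) and CASTOR1 (0.80), an arginine sensor, rose and RHEB (-0.84), the activator of mTORC1, fell. These calls at 24 h and those of the remaining lists are read beside the 6.26% of all probes called in H1975 at 24 h. Among 39 lysosomal genes PSAP (0.57), the precursor of the saposins, rose and GLA (-0.83), a lysosomal galactosidase, fell in H1975 at 24 h, and the median of the list was 0.08. The other lists gave WDR45 (0.62) higher and TRAPPC8 (-0.69) lower of 17 further core genes, RETREG1 (1.21), a receptor for the endoplasmic reticulum, higher of 18 receptors, and STX17 (0.45), the fusion syntaxin, higher of 14 fusion genes, all in H1975 at 24 h. None of 6 relatives of TFEB and FOXO factors was called in any drug comparison.

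In PBS alone the lines differed in a share of the members near that of all probes, and the 4 genes called in H1975 with Pirfenidone were all lower there than in A549. These line comparisons use the same PBS arrays as the drug comparisons. At 6 h 24 of 36 members differed, where 58.6% of all probes did so, with 13 higher (30.7% of all probes) and 11 lower (27.9%) in H1975. At 24 h 20 differed, where 59.2% did, with 10 higher (32% of all probes) and 10 lower (27.2%). With a limit of 2-fold there were 12 and 10, beside 32.4% and 32.9% of all probes. All 36 differences had the same sign at both times, and 20 members were called at both, 10 higher and 10 lower.

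ULK2 was lower in H1975 by 1.55 at 6 h and by 1.88 at 24 h, ULK1 by 1.67 and 1.58, GABARAPL1 by 1.43 and 1.19, MAP1LC3A by 1.41 and 1.49 and SQSTM1 by 1.37 and 1.28. SQSTM1 shows how far the groups lay apart, with all 6 PBS arrays of A549 between 4.53 and 4.91 and those of H1975 between 3.18 and 3.65. With Pirfenidone ULK1 of H1975 reached at most 1.5 at 6 h, below the A549 PBS arrays of that time (1.75 to 1.85), and 1.01 to 1.52 at 24 h, which overlaps the A549 PBS arrays at 24 h (1.43 to 2.03). UVRAG, a subunit of the PI3-kinase complex, was also lower, by 1.05 and 1.25.

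MAP1LC3B was higher in H1975 by 1.48 (SE 0.11) at 6 h and 1.38 at 24 h, ATG14, another subunit of the PI3-kinase complex, by 1.34 and 1.24, and LAMP2 by 1.22 and 1.24. WIPI2, a relative of WIPI1, followed with 1.08 and 1.14, and ATG4D with 1.09 and 0.97. ATG14 was dim in both lines, with PBS arrays from -5.49 to -4.04 in A549 and from -3.80 to -3.16 in H1975. The families were split: in the ATG8 family MAP1LC3B was higher and MAP1LC3A and GABARAPL1 were lower, and among the conjugation enzymes ATG3, ATG7 and ATG12 were higher at both times and ATG10 and ATG16L1 lower. The second probe of MAP1LC3B gave 0.61 and 0.29, less than the brightest, and at 24 h it was not called. ATG5 at both times and ATG13 at 24 h were called only by a probe other than the brightest. WIPI1 was 1.18 higher in H1975 at 6 h and 0.48 higher, not called, at 24 h. Without the A549 replicate 3 arrays it was called at 24 h. The PBS array left out held WIPI1 at 1.87, against 0.06 and 0.04 on the others of its group. That pair was picked for running opposite in the members, so this call is no independent support.

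**Figure D4:**
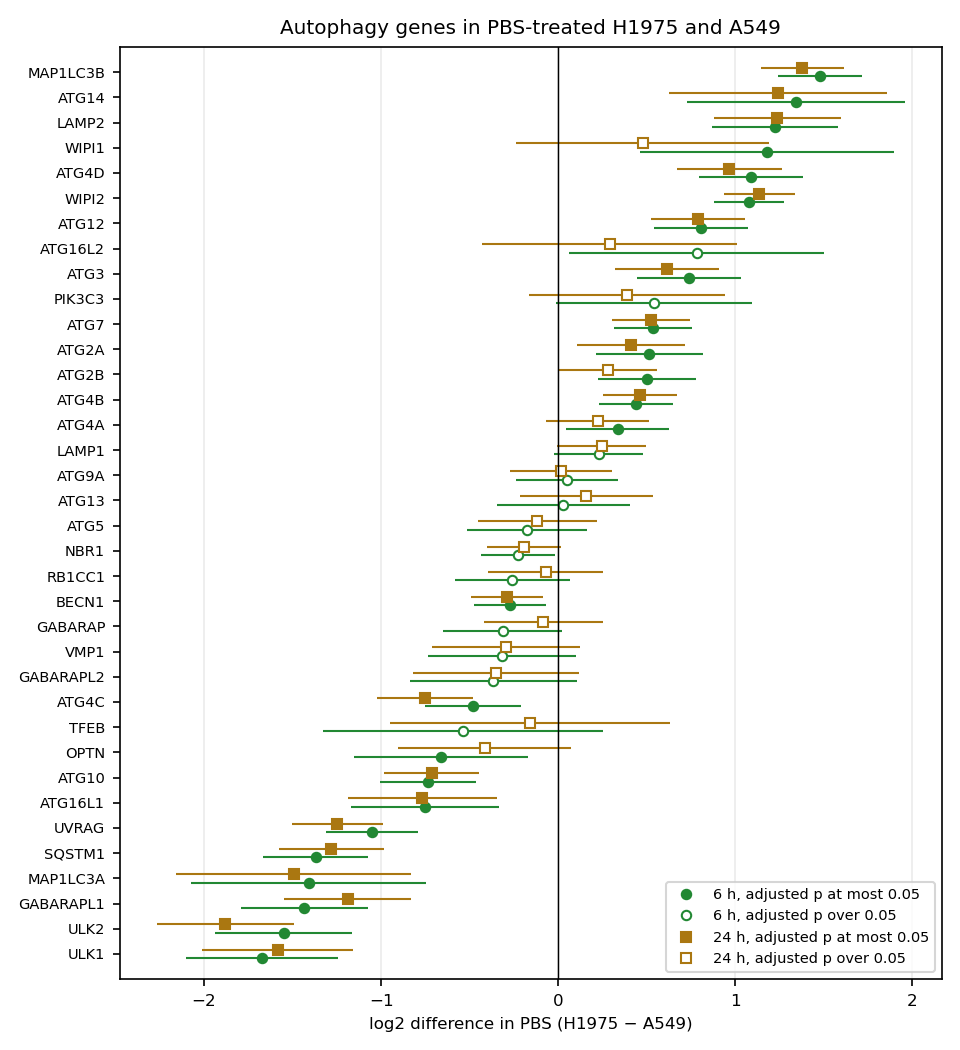
Log2 difference of H1975 minus A549 in PBS (x axis) for the 36 autophagy genes, ordered by the 6 h value, with 95% confidence intervals from limma (n = 3 arrays per group). Filled symbols have an adjusted p of 0.05 or less. ULK1, ULK2, GABARAPL1, MAP1LC3A and SQSTM1 lie farthest left and MAP1LC3B, ATG14 and LAMP2 farthest right at 6 h, and all 8 keep their side at 24 h.

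In PBS the times were compared within each line. From 6 h to 24 h limma called 0 of 36 in A549 (0.134% of all probes) and 0 in H1975 (0.663%), with 5 at an unadjusted p under 0.05 in each, beside 8.49% and 10.6% of all probes. The largest differences were WIPI1 (0.73, adjusted p = 0.582) in A549, which was high on 1 of its 3 PBS arrays at 24 h, and TFEB (0.72, adjusted p = 0.543) in H1975. With the date as a block, where 1.57% of all probes were called in A549 and 7.62% in H1975, ATG4C (0.39, adjusted p = 0.0469) was called in A549, and TFEB (adjusted p = 0.00472), GABARAP, ATG10, RB1CC1 (all higher at 24 h) and ATG4D (lower) in H1975.

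The calls in H1975 differed in how firmly they held. ULK1 was called at 6 h in 17 of 20 alternative settings and at 24 h in 18 of 20, including each of the 6 fits without 1 array. SQSTM1 at 24 h was called in 11 of 20, GABARAPL1 in 10 of 20 at 6 h and 7 of 20 at 24 h, and ULK2 at 24 h in 9 of 20. ULK1 and SQSTM1 had no second tested probe, so the setting with the mean of all probes could not test their calls as it did that of ULK2. Leaving out any 1 of the 6 arrays ended the call of GABARAPL1 at 24 h (adjusted p from 0.0642 to 0.199), and leaving out Pirfenidone replicate 3 or PBS replicates 1 or 2 ended those of SQSTM1 (0.0671 to 0.153) and ULK2 (0.0594 to 0.131), for ULK2 also PBS replicate 3 (0.0655). Blocking the date, in contrast, lowered the adjusted p of all 6 calls and added ATG10, NBR1 and RB1CC1 at 6 h (all higher) and ATG10 and MAP1LC3B (higher) and ATG12 and ATG4A (lower) at 24 h, with 6.83% and 21.8% of all probes then called.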

How the data were processed

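Human A549 and H1975 cells were profiled on 24 Agilent one-color arrays, 3 per group of line, treatment and time. The authors deposited the scanner output of each array, whose intensity values are background-subtracted by Agilent Feature Extraction version 11.5.1.1 and not normalized between arrays. The authors also deposited processed log2 values of the same arrays, centered per probe with the array scaling not stated, used as an alternative. Intensities were taken as log2 minus the 75th percentile of the array, without outlier spots, averaged per probe, with no pseudocount. Of 34127 probes, 23827 were detected above background (in a share of 0.5 or more of their spots) on every array of 1 group or more, and were fitted in limma version 3.58.1 (R 4.3.3) with 8 group means, 16 residual degrees of freedom and Benjamini-Hochberg adjustment within each comparison. The steps were tested on simulated data with independent noise, no date or slide effect and planted changes larger than any drug response of a member. That test does not tell how well changes of the size seen here are found.

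The 36 members and the pathway lists were chosen with earlier results of these data known. Members were given in full if called in a drug comparison or a difference of responses, and named if among the 3 largest or 3 smallest differences of a comparison or, for the lines in PBS, the 5 largest called each way. Of the pathway lists up to 4 called genes per comparison were named. Further genes were named after their values were seen, where probes disagreed or a block changed a call. All 36 accessions matched RefSeq under the same symbol, and 17 members had several probes. Probe positions are those of the array files (hg19), and exons and untranslated regions are not given because no annotation of that build was used. Alternatives were normexp correction (offset 50), quantile normalization, the authors' values, filters on dim probes, fits of the arrays compared and replicate number, slide or date as a block. Further ones were Holm adjustment, a 2-fold limit, a plain t-test paired by date, the mean of all probes and leaving out arrays. The plain t-test lacks the moderation of the study's test.

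The deviations of Pirfenidone and PBS arrays from their group means correlated in all pairs of the same date in A549 at 6 h (0.58 to 0.70) and H1975 (0.46 to 0.82), where date and replicate number coincide except in H1975 at 6 h. In A549 at 24 h they ranged from -0.10 to 0.39. The number of arrays limits the precision.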

Additional observations from a re-analysis of the deposited data

How the results depend on the processing

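The direction of the 6 calls in H1975 was the same under every alternative run, and their number was not. In H1975 the members called at 6 h and 24 h numbered 1 and 1 with normexp background correction (1.2% and 1.77% of all probes), 0 and 1 with only the arrays compared (0.0168% and 0.969%), 0 and 0 with Holm adjustment (0.122% and 0.172%), 1 and 1 with a limit of 2-fold (0.491% and 1.89%), and 5 and 8 with the date as a block (6.83% and 21.8%). A plain t-test paired by date, without the moderation of the study's test, gave 1 and 1 at an unadjusted p of 0.05 with 2-fold (0.902% and 2.2%). After Benjamini-Hochberg it gave 0 and 0. Leaving out 1 array gave 1 to 2 at 6 h and 1 to 4 at 24 h. In PBS the line differences were 9 at each time with Holm adjustment (22.1% and 22.3% of all probes), and 12 and 10 with a limit of 2-fold. With the date as a block the line difference of the 24 h responses held 2 calls and the PBS time difference 1 in A549 and 5 in H1975, for which the slide as a block gave 2 (4.4% of all probes). Without both A549 replicate 3 arrays at 24 h and with the date as a block, 2 members were called and WIPI1 turned from -0.14 to 0.75. ATG7 in H1975 at 6 h turned to -0.36 with the mean of its probes. The cause was not tested.

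With the replicate number as a block (replicate block), 2 members were called at 6 h and 6 at 24 h in H1975, where 2.52% and 10.1% of all probes were, the latter with MAP1LC3B higher and ATG12 lower beside the others. By replicate number the correlations in H1975 at 6 h were -0.48, 0.43 and -0.68, so the numbers were not taken to pair the samples. Normexp correction moved the median of all probes in H1975 at 6 h from 0.05 to 0.29. With the slide as a block, H1975 PBS replicate 1 at 24 h, alone on its slide, carries no weight. The Westfall-Young adjustment of the methods was not run, since 3 against 3 arrays cannot reach its threshold. Probes of 1 gene can disagree, and mRNA gives no measure of protein or autophagic flux.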
